A study of Rubus idaeus with 6 samples.

Results

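JMJ14, FCA, FY and HUA1 are 4 raspberry gene models that carry the names of Arabidopsis regulators of flowering acting through chromatin or RNA processing. They were taken as the rows of the deposited table whose gene model is Ro03_G15781 (JMJ14), Ro04_G19915 (FCA), Ro03_G05236 (FY) or Ro03_G05776 (HUA1), the models that the study pairs with these Arabidopsis genes. All 4 were found among the 19951 gene models of the table. The study asked which genes differ between buds of an annual-fruiting (AF) and a biennial-fruiting (BF) red raspberry, and RNA was sequenced from 3 libraries of ‘Heritage’ (AF, libraries 62, 63 and 64) and 3 of ‘Wakefield’ (BF, libraries 59, 60 and 61). AF canes flower and fruit in their first season, whereas BF canes normally pass through winter dormancy first. The buds were axillary buds from 5 to 10 nodes below the shoot tip of plants grown together in a field in New Zealand, all sampled on November 5, and the labels give no plant age. Each fruiting habit is a single cultivar here, so a difference between the groups cannot be told apart from any other difference between ‘Heritage’ and ‘Wakefield’.

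As background from Arabidopsis, JMJ14 is a jumonji histone demethylase that removes methyl groups from lysine 4 of histone H3 and holds back FT, the mobile flowering signal. FCA is an RNA-binding protein that binds FY, a WD-repeat subunit of the machinery that cleaves and polyadenylates transcripts. Together they favour early 3′ ends of the antisense RNA of FLC, a repressor of flowering, and so lower FLC. HUA1 is an RNA-binding protein with CCCH zinc fingers that acts with HUA2 on the processing of the pre-mRNA of AGAMOUS (AG), which specifies stamens and carpels.

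Values are normalized counts, that is, reads per gene model scaled for library depth by the authors, with no correction for gene length. Levels are therefore compared between libraries and not between genes. The reads behind the values could be recovered and came to between 7345603 and 14977596 per library, lowest in ‘Wakefield’ library 60. The cultivars were compared with limma on log2(normalized count + 1), with log2 fold changes given as ‘Heritage’ minus ‘Wakefield’ and p-values adjusted over all gene models tested. JMJ14, FCA and HUA1 were among the 17898 gene models with a normalized count of at least 10 in at least 3 libraries. FY was not, and was tested in a second fit over all 19951 gene models. The limma p-values rest on the spread among the 3 libraries of each cultivar, which the study calls biological replicates. That spread is pooled over both cultivars and drawn toward the spread of all gene models in the fit.

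Of the 4 genes, JMJ14 was higher in ‘Heritage’ (AF) buds than in ‘Wakefield’ (BF) buds and the other 3 missed the threshold of an adjusted p under 0.05 in limma. JMJ14 transcripts were about 2.14 times as abundant in ‘Heritage’, and in such bulk libraries a larger share of the cells that express a gene cannot be told apart from more of its RNA per cell. FCA was 1.22 times as abundant and FY, with very few reads, had a ratio of 0.31, while the mean of HUA1 was nearly equal in the cultivars. In the fit of 17898 gene models, 16.0% were called higher and 17.5% lower in ‘Heritage’, so that 1 higher gene among the 3 tested there is read against a background in which calls were common. For JMJ14 and FCA, 2 of the 3 tested there, every ‘Heritage’ library was above every ‘Wakefield’ library, which held for 27.0% of those gene models. FY was lower in every ‘Heritage’ library, which held for 25.5% of all 19951 gene models. The study named JMJ14, FCA and HUA1 among its candidates from these same libraries, and their directions are not independent evidence.

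**Figure D1:**
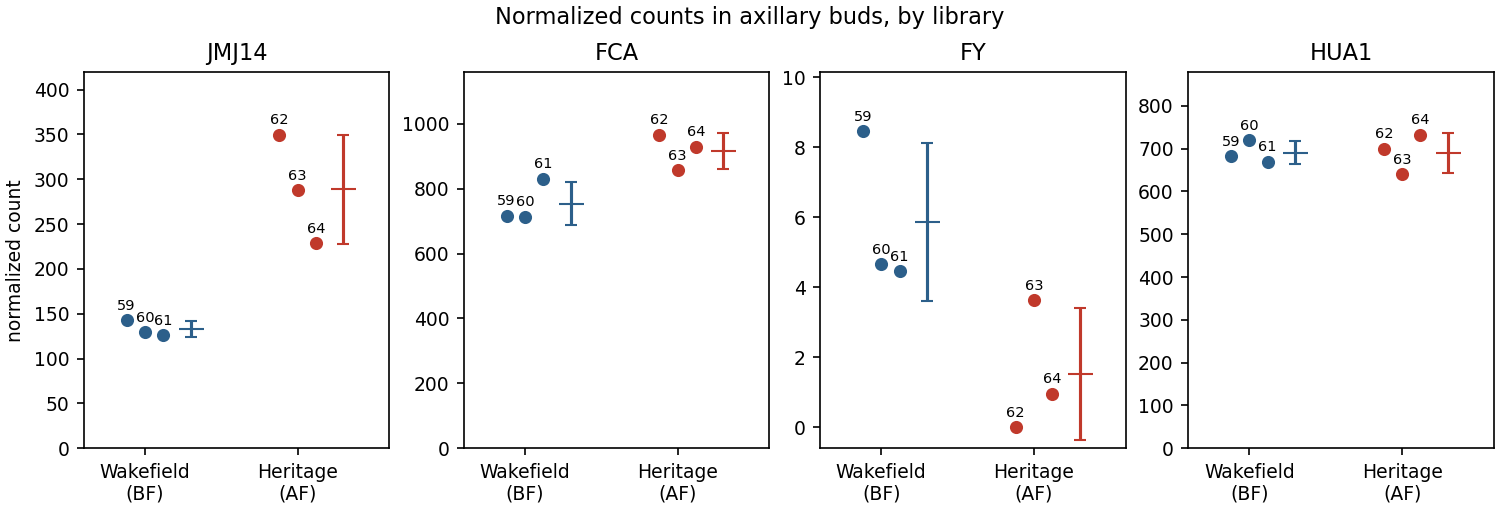
Normalized count (vertical axis) of JMJ14, FCA, FY and HUA1 in each library, with the library number beside each point and the mean ± SD of 3 libraries beside each cultivar. The ‘Heritage’ libraries lie above the ‘Wakefield’ libraries for JMJ14 and FCA and below them for FY, and the cultivars overlap for HUA1.

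JMJ14 is the histone demethylase of the set, and its model is listed at 37388564 bp on LG3 of the black raspberry assembly used by the study. That position lies within the mapped RiAF3 interval, as do those listed for FY and HUA1. In ‘Wakefield’ libraries 59, 60 and 61 JMJ14 had a normalized count of 143, 129 and 126. In ‘Heritage’ libraries 62, 63 and 64 it had 349, 288 and 229. Every ‘Heritage’ library was thus above every ‘Wakefield’ library, and the cultivars did not overlap in unscaled reads either, with 240 to 334 reads in ‘Heritage’ and 83 to 170 in ‘Wakefield’. The means were 289 ± 60.5 and 133 ± 8.84 (SD, n = 3 each). The log2 fold change, 1.10, had a standard error of 0.17 (95% interval 0.67 to 1.52, limma adjusted p = 0.00724), which is a fold of 2.14 with an interval of 1.59 to 2.87. Among all gene models tested, 83.8% had a smaller change in either direction. By a stricter rule in limma (adjusted p under 0.01, log2 fold change past 1), which is not the full rule of the study, JMJ14 was among the 4.45% of gene models called higher. Each library left out in turn gave an adjusted p between 0.00982 and 0.0343 from limma. JMJ14 thus stayed under 0.05, but met the 0.01 threshold in these fits only without ‘Heritage’ library 64.

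The JMJ14 values ranged more widely among the ‘Heritage’ libraries. Its coefficient of variation was 20.9% in ‘Heritage’, against 5.86% from read counting alone, and 6.66% in ‘Wakefield’, against 9.04% from counting. On the log2 scale, 80.3% of gene models had a smaller SD than JMJ14 among the ‘Heritage’ libraries and 18.7% among the ‘Wakefield’ libraries. Library 62 was the high one and library 64 the low one in ‘Heritage’. Whether this spread differs between the cultivars was not tested.

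FCA, the RNA-binding partner, is on LG4 by the name of its model and its position is not used here. Its normalized counts were 717, 714 and 831 in ‘Wakefield’ libraries 59, 60 and 61. They were 966, 857 and 929 in ‘Heritage’ libraries 62, 63 and 64. The groups did not overlap, but ‘Wakefield’ library 61 and ‘Heritage’ library 63 were only a few percent apart. The means were 917 ± 55.5 and 754 ± 66.8 (SD, n = 3 each). The log2 fold change of FCA was 0.28 with a standard error of 0.11 (95% interval 0.01 to 0.56). The unadjusted p was 0.0430 and the adjusted p 0.0972 from limma, so FCA did not pass; an unadjusted p under 0.05 was found for 46.1% of the gene models tested. The interval of the fold runs from 1.01 to 1.47, which leaves out a change as large as that of JMJ14. FCA did not pass under any other test or setting either, with adjusted p-values from 0.0525 (limma with a mean-variance trend) to 0.227 (limma without ‘Heritage’ library 62). Before scaling, its reads overlapped between the cultivars, with 923 to 976 in ‘Heritage’ and 459 to 1119 in ‘Wakefield’, so that the separation appears once library depth is taken out. The coefficient of variation was 6.05% in ‘Heritage’ and 8.86% in ‘Wakefield’, against 3.25% and 3.82% from counting.

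FY, the polyadenylation partner of FCA, is listed at 40307109 bp on LG3 and was read very rarely. The ‘Wakefield’ libraries 59, 60 and 61 held 9, 3 and 6 of its reads, and the ‘Heritage’ libraries 62, 63 and 64 held 0, 4 and 1. Unscaled, the read counts of the cultivars overlap, since library 60, the shallowest, has 3 reads and library 63 has 4. Scaled, the normalized counts were 8.45, 4.67 and 4.46 in ‘Wakefield’ and 0, 3.63 and 0.952 in ‘Heritage’, and no longer overlap. The 0 reads of library 62 allow up to 3.69 reads (exact Poisson 95% limit, counting error only). In all, 18 reads fell on FY in ‘Wakefield’ and 5 in ‘Heritage’, a ratio of 3.66 per scaled depth with an exact 95% interval of 1.31 to 12.6, which covers counting error only. In the limma fit over all gene models FY had a log2 fold change of -1.67 with a standard error of 0.58 (95% interval -3.12 to -0.23, adjusted p = 0.0802), and FY did not pass. In that fit 15.9% of gene models were called lower. Without ‘Heritage’ library 63, which holds 4 of the 5 ‘Heritage’ reads, the log2 fold change was -2.25 and passed (limma adjusted p = 0.0341). The size of the FY change depended on the pseudocount, from -2.96 with 0.1 to -0.46 with 10, and edgeR and DESeq2 on the recovered reads gave adjusted p-values of 0.136 and 0.256. FY is the only gene model of this name in the part of the interval list used here, and whether other gene models hold FY reads was not looked at.

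HUA1, the CCCH zinc-finger protein, has its listed position on LG3 at 35953009 bp, although another table of the study places the model a few kilobases away. Normalized counts of HUA1 were 683, 720 and 670 in ‘Wakefield’ libraries 59, 60 and 61. They were 700.0, 640.5 and 732 in ‘Heritage’ libraries 62, 63 and 64. The groups overlapped fully, the ‘Wakefield’ values lying inside the range of the ‘Heritage’ values. The means were 691 ± 46.6 and 691 ± 26.1 (SD, n = 3 each). The log2 fold change was only -0.0015, with a standard error of 0.10 (limma adjusted p = 0.992), and only 0.223% of gene models had a smaller change. The test does not show equality, but the 95% interval of -0.25 to 0.24, a fold of 0.84 to 1.18, leaves out larger changes in either direction. HUA1 also varied little within a cultivar, with a coefficient of variation of 6.74% in ‘Heritage’ and 3.78% in ‘Wakefield’, against 3.75% and 3.93% from counting.

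**Figure D2:**
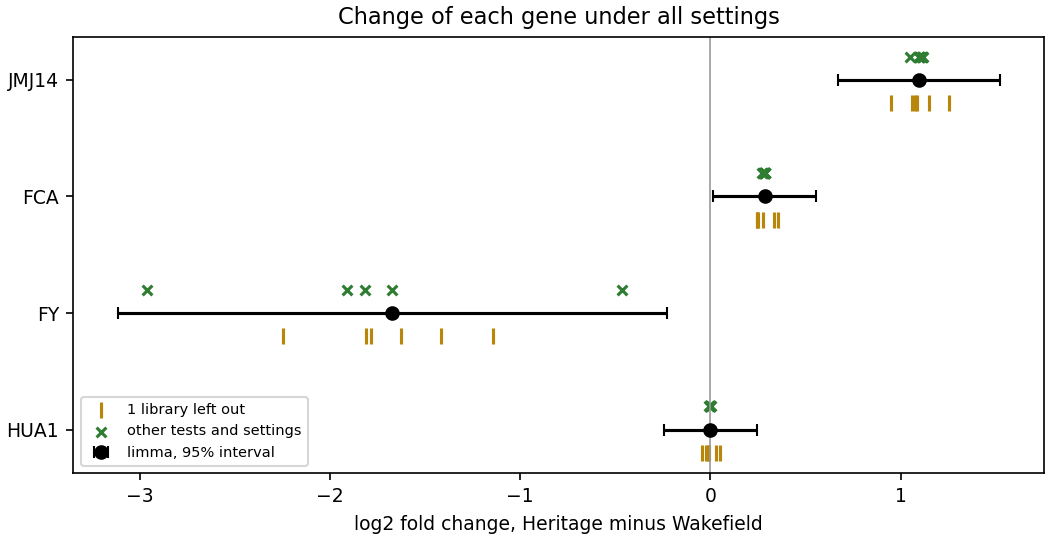
Log2 fold change, ‘Heritage’ minus ‘Wakefield’ (horizontal axis), of each gene with its 95% interval from limma (black), with 1 library left out in turn (bars) and under other tests, filters and pseudocounts (crosses). JMJ14 stays between 0.95 and 1.25 and FCA between 0.25 and 0.36, FY spans -2.96 to -0.46, and HUA1 lies on both sides of 0.

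Whether the genes changed alike was asked by taking the difference of their log2 values within each library and comparing it between the cultivars (exact permutation test over the 6 libraries, two-sided, 6 pairs of genes). With 3 libraries against 3 the smallest p this test can give is 0.10, and it gave 0.10 for all 6 pairs (0.10 after adjustment over the 6), so none can pass 0.05. FCA and FY, whose proteins work together in Arabidopsis, had opposite signs of change. FCA minus FY was 9.92, 7.53 and 8.90 log2 units in ‘Heritage’ libraries 62, 63 and 64 and 6.25, 6.98 and 7.25 in ‘Wakefield’ libraries 59, 60 and 61. Without a correction for gene length these values do not give the level of 1 gene against the other. The value of library 62, with 0 reads of FY, depends on the pseudocount. The ‘Heritage’ differences were all larger, by 1.96 on average (standard error 0.75), but the nearest values, of libraries 63 and 61, are close and the figure rests on the 23 reads of FY. With a pseudocount of 0.1 the difference was 3.25 and with 10 it was 0.74.

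JMJ14 was also set against the well-read FCA and HUA1. Relative to FCA it was higher by 0.81 log2 units in ‘Heritage’ than in ‘Wakefield’ (standard error 0.20), and relative to HUA1 by 1.10 (standard error 0.21). In both pairs the values of the 3 ‘Heritage’ libraries lay above those of the 3 ‘Wakefield’ libraries. The share of all gene pairs without overlap was not counted. For single gene models it was 27.0% with ‘Heritage’ higher and 26.2% with ‘Heritage’ lower. Each mean difference follows from the log2 fold changes of the genes given above and is no separate evidence. FCA relative to HUA1 was 0.46, 0.42 and 0.34 in ‘Heritage’ libraries 62, 63 and 64. It was 0.07, -0.01 and 0.31 in ‘Wakefield’ libraries 59, 60 and 61, so that library 61 nearly reached ‘Heritage’. The mean difference was 0.29 (standard error 0.10).

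**Figure D3:**
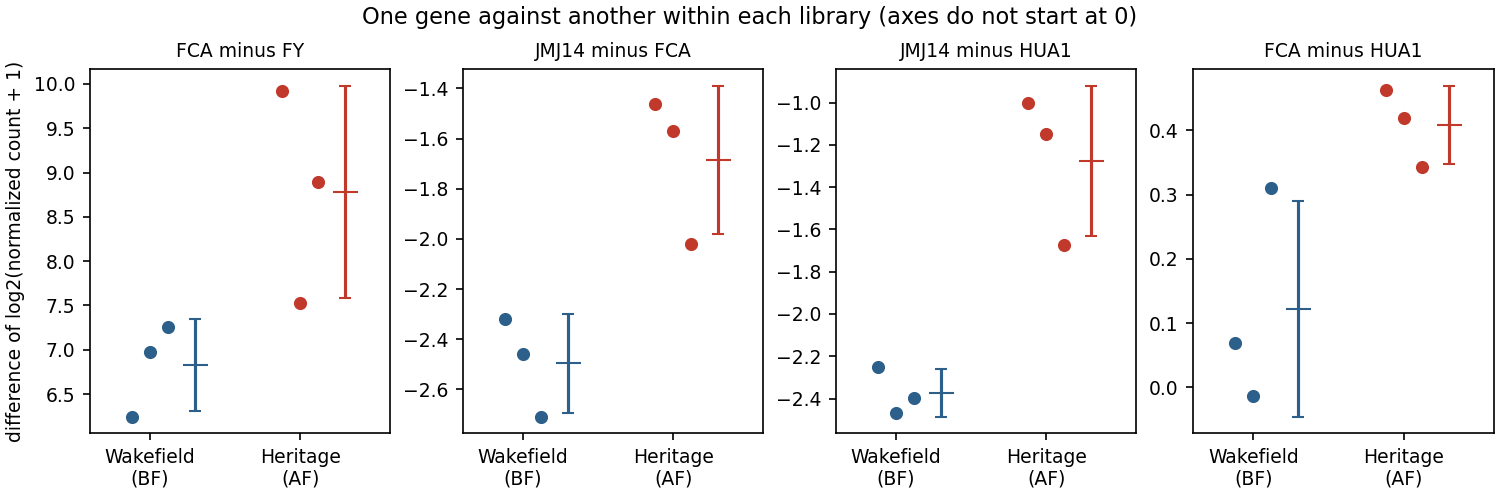
Difference of log2(normalized count + 1) between 2 genes (vertical axis, not from 0) in each library of ‘Wakefield’ and ‘Heritage’, with the mean ± SD of 3 libraries, for 4 of the 6 pairs. The cultivars do not overlap in any of the 4 panels, with mean differences of 1.96 for FCA minus FY, 0.81 for JMJ14 minus FCA, 1.10 for JMJ14 minus HUA1 and 0.29 for FCA minus HUA1. The share of all gene pairs without overlap was not counted.

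Of the other genes of transcript 3′ end processing, PCFS4 and CPSF30 were higher in ‘Heritage’. FCA, FY and 3 further genes were listed, CPSF30 and CPSF73-II (subunits of the cleavage and polyadenylation factor) and PCFS4 (a Pcf11-like factor that interacts with FY and promotes flowering in Arabidopsis). Of the 4 tested, 2 passed as higher in ‘Heritage’ and 0 as lower in limma, and FCA and CPSF73-II did not pass. Among all gene models tested, 16.0% were called higher, 17.5% lower and 33.5% in either direction. The median log2 fold change of the 4 was 0.33, against 0.01 over all gene models tested. PCFS4 (Ro03_G10562) had normalized counts of 884, 831 and 830.4 in ‘Heritage’ libraries 62, 63 and 64 and of 691, 624 and 636 in ‘Wakefield’ libraries 59, 60 and 61. The groups of PCFS4 did not overlap, with every ‘Heritage’ library higher, as for 27.0% of gene models tested. On the log2 scale PCFS4 was higher by 0.38 with a standard error of 0.10 (limma adjusted p = 0.0279). CPSF30 (Ro03_G16166) had 767, 693 and 647 in ‘Heritage’ and 518, 518 and 567 in ‘Wakefield’, also without overlap (log2 fold change 0.39, limma adjusted p = 0.0383). CPSF73-II (Ro04_G00260) had means of 76.3 ± 15.4 and 64.4 ± 13.3 (SD, n = 3 each) with overlapping groups, and an adjusted p of 0.418 from limma. The count of 2 was 1 without ‘Wakefield’ library 59 and 0 without any one of the other 5 libraries, where the adjusted p of PCFS4 reached 0.0946 and that of CPSF30 0.119.

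Among the genes tied to HUA1, the list held HUA2, HEN1 and AG beside HUA1 itself. HEN1, a methyltransferase that stabilizes small RNAs, named in Arabidopsis as an enhancer of hua1 hua2 mutants, was the only one of the 4 to pass, where 33.5% of all gene models tested passed in either direction and 17.5% as lower. HEN1 (Ro03_G16143) had 181, 198 and 204 in ‘Heritage’ libraries 62, 63 and 64 and 327, 254 and 313 in ‘Wakefield’ libraries 59, 60 and 61, all ‘Heritage’ libraries being lower, as for 26.2% of gene models tested. It was lower, with a log2 fold change of -0.61 and a standard error of 0.13 (limma adjusted p = 0.0188). It did not pass without ‘Wakefield’ library 61 or ‘Heritage’ library 62 or 63 (adjusted p up to 0.0668), where the list held 1 (AG), 0 and 0 calls. HUA2 (Ro04_G12498), whose product acts with HUA1 on AG, had 1012, 957 and 1048 in ‘Heritage’ against 890.5, 795 and 864 in ‘Wakefield’. Its groups did not overlap (‘Heritage’ higher, as for 27.0% of gene models tested), but the log2 fold change of 0.24 did not pass (limma adjusted p = 0.107). AG (Ro03_G05331), the transcript that HUA1 processes in Arabidopsis, had 26.2, 40.9 and 37.1 in ‘Heritage’ and 84.5, 129 and 36.4 in ‘Wakefield’. ‘Wakefield’ library 61 was at the ‘Heritage’ level. AG did not pass in limma (adjusted p = 0.122) or edgeR (adjusted p = 0.0699) but did in DESeq2 (adjusted p = 0.0301). In limma AG passed without ‘Wakefield’ library 61 (adjusted p = 0.0167) and not without any other library (adjusted p up to 0.290).

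Genes for histones and chromatin moved both ways around JMJ14. Of 17 gene models listed, JMJ14 included, all were tested, and in limma 3 passed as higher in ‘Heritage’, 4 as lower and 10 in neither direction. That is 7 of 17, against 33.5% of all gene models tested, with 16.0% called higher and 17.5% lower. The median log2 fold change was 0.14, against 0.01 over all gene models tested. The count of 7 was 4 without ‘Heritage’ library 63 or library 64, and 6 with no filter. It was 8 with a filter of at least 50, 9 in DESeq2 and edgeR, and 10 in limma with a mean-variance trend. Those fits called 5542, 7082, 6678 and 6775 gene models in all. JMJ14 had the largest increase in the list. The others higher were a bromodomain gene, BET9 (Ro03_G13381, log2 fold change 0.42, adjusted p = 0.0416), and a gene of the SNF2 helicase class (Ro03_G33130, log2 fold change 0.46, limma adjusted p = 0.0313). Another gene model listed for the same Arabidopsis SNF2 gene, Ro04_G23448, overlapped between the cultivars and did not pass (log2 fold change 0.14, limma adjusted p = 0.348). BET9 and Ro03_G33130 lost their calls in 5 of the 6 fits with 1 library left out, with adjusted p-values up to 0.118 and 0.0951 from limma.

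The 4 that were lower included a reader of the histone mark that JMJ14 removes. EBS (Ro03_G13514), which binds methylated lysine 4 of histone H3 and represses FT in Arabidopsis, had 429, 469 and 483 in ‘Heritage’ libraries 62, 63 and 64. It had 779, 994 and 1066 in ‘Wakefield’ libraries 59, 60 and 61. The groups were far apart, with a log2 fold change of -1.03 and a standard error of 0.15 (limma adjusted p = 0.00535) that passed with each library left out (adjusted p at most 0.0269). CMT3 (Ro04_G00341), a DNA methyltransferase guided by methylated lysine 9 of histone H3, had means of 169 ± 14.9 (‘Heritage’) and 511 ± 79.5 (‘Wakefield’, SD, n = 3 each), with a log2 difference of -1.58 (limma adjusted p = 0.00170). SUVH4 (Ro04_G08855), which makes the mark that CMT3 reads, had a log2 fold change of -0.60 that did not pass in limma (adjusted p = 0.0608) but did in edgeR (adjusted p = 0.0371). SDG35, a SET-domain gene (Ro04_G00041, log2 fold change -1.28, adjusted p = 0.0126), and histone H3.1 (Ro03_G05180, log2 fold change -0.80, adjusted p = 0.0155) were the other lower ones, both from limma. H3.1 did not pass without ‘Heritage’ library 63 or 64 (limma adjusted p up to 0.0571). PIE1 (Ro03_G23264), a chromatin remodeller that deposits H2A.Z and sustains FLC expression in Arabidopsis, had means of 1121 ± 8.31 (‘Heritage’) and 963 ± 20.1 (‘Wakefield’, SD, n = 3 each). Its groups did not overlap (‘Heritage’ higher, as for 27.0% of gene models tested), but its log2 fold change of 0.22 did not pass (limma adjusted p = 0.0981).

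Of 8 splicing gene models, 1 passed in limma, as higher, and 7 did not, where 33.5% of all gene models tested were called in either direction and 16.0% as higher. The median log2 fold change of the 8 was 0.14. The higher one is listed for SKIP (Ro04_G00405), a splicing factor that also acts in transcription of flowering genes in Arabidopsis. It had 57.5, 37.2 and 43.8 in ‘Heritage’ libraries 62, 63 and 64 and 9.39, 10.9 and 5.20 in ‘Wakefield’ libraries 59, 60 and 61. The groups did not overlap, with ‘Heritage’ higher, as for 27.0% of gene models tested. On the log2 scale SKIP was higher by 2.34 with a standard error of 0.29 (limma adjusted p = 0.00350), the largest of any gene in the 5 lists. Of 4 small RNA genes (AGO2, AGO7, RDR1 and HEN1), HEN1 was the only call, 1 of 4 being close to that 33.5%. This count was 0 without ‘Heritage’ library 62 or 63 or ‘Wakefield’ library 61, and 2 without ‘Wakefield’ library 59. Reads were aligned to the gene models of black raspberry, and the sources used here do not say how reads shared by related genes were counted.

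**Figure D4:**
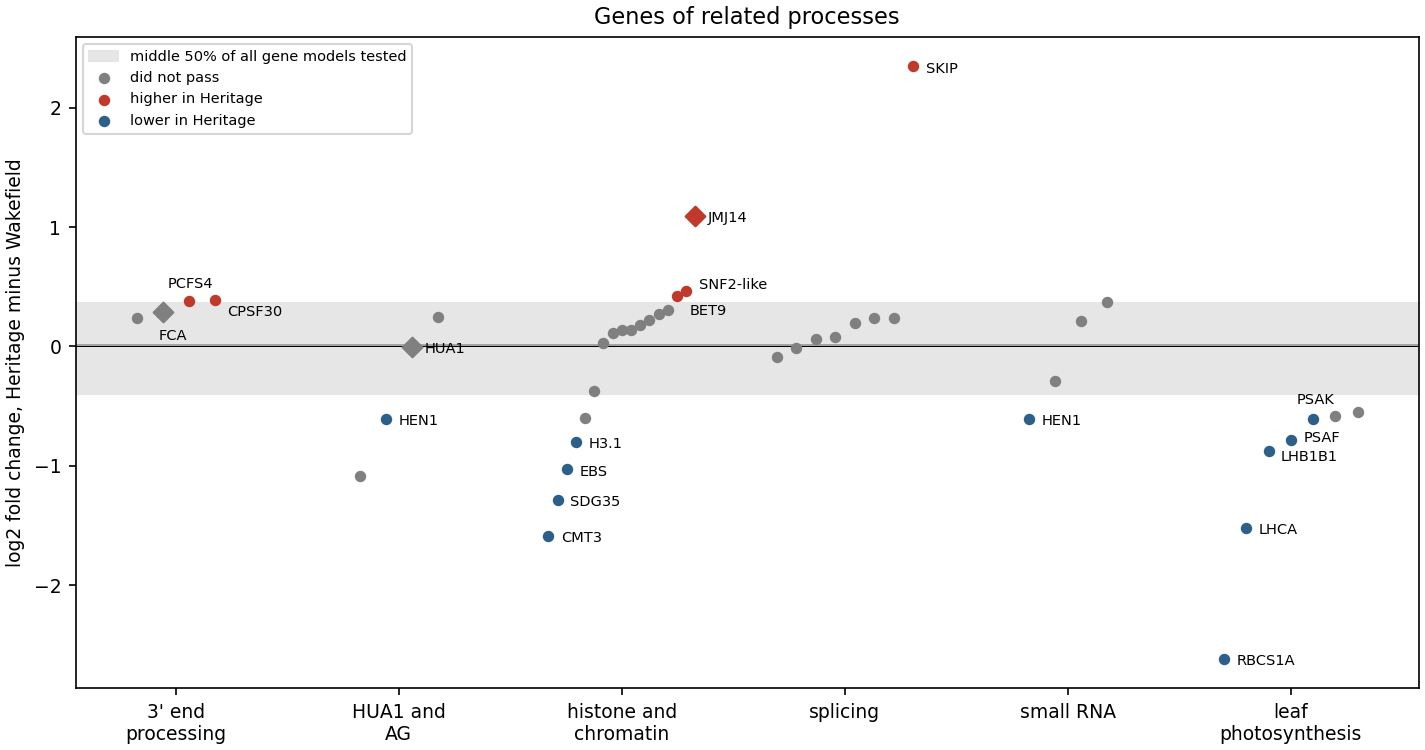
Log2 fold change, ‘Heritage’ minus ‘Wakefield’ (vertical axis), of the tested gene models in each list, with JMJ14, FCA and HUA1 as diamonds and the interquartile range of all gene models tested in grey. JMJ14 at 1.10 is the highest of the chromatin list and SKIP at 2.34 of all lists shown, and all 7 leaf photosynthesis genes lie below 0.

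A bud sample can hold leaf tissue. Of 7 leaf photosynthesis genes 0 passed as higher and 5 as lower in ‘Heritage’ (limma, adjusted p under 0.05), against 16.0% and 17.5% of all gene models tested. Each of edgeR and DESeq2 called 7, where they called 6678 and 7082 gene models in all. For all 7 every ‘Heritage’ library was below every ‘Wakefield’ library, as for 26.2% of gene models tested. Their summed normalized count was 9170 to 10380 in the ‘Heritage’ libraries and 14878 to 20528 in the ‘Wakefield’ libraries, so the marker list moved with cultivar, and its part in the values of JMJ14 and the other genes was not tested. Of 3 genes known from buds and shoot meristems (DRM1, ATML1 and KNAT6), all were read in every library. None passed in limma, where 33.5% of all gene models tested did. Of the 3, edgeR called 1 and DESeq2 2, among the 6678 and 7082 gene models that they called in all. The share of tested gene models called by edgeR or DESeq2 was not worked out, here or for the leaf genes. The unadjusted limma p was under 0.05 for 2 of the 3 bud genes, against 46.1% of all gene models tested. Their directions differed, with log2 fold changes of 0.46 for DRM1, 0.20 for KNAT6 and -0.76 for ATML1. DUO3, listed as a pollen gene, had means of 342 ± 16.0 (‘Heritage’) and 386 ± 8.80 (‘Wakefield’, SD, n = 3 each) and did not pass (limma adjusted p = 0.192). Its groups did not overlap, with every ‘Heritage’ library lower, as for 26.2% of gene models tested. DUO3 was well read in every library, and whether any of its reads came from pollen was not tested.

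The gene models next to JMJ14, FY and HUA1 on LG3 are read against the 16.0% called higher and 17.5% called lower among all gene models tested. Around JMJ14, 9 of the 10 nearest listed models were tested, and 1 was higher, 1 was lower and 7 did not pass in limma, with log2 fold changes from -0.49 to 0.87. The nearest, a gamma-SNAP gene (Ro03_G15778, a vesicle fusion factor), had a log2 fold change of -0.06 (limma adjusted p = 0.755). Around FY, 3 of 10 were higher and 2 were lower in ‘Heritage’. Some models near FY were well read, such as Ro03_G05237 with 695 in ‘Heritage’ and 467 in ‘Wakefield’ and the autophagy gene APG7 (Ro03_G05234) with 530.2 and 404 (means, n = 3 each). The nearest model on the other side, Ro03_G05235, had only 17.0 and 13.6. Around HUA1, 1 of 9 tested was higher, 1 was lower and 7 did not pass.

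**Figure D5:**
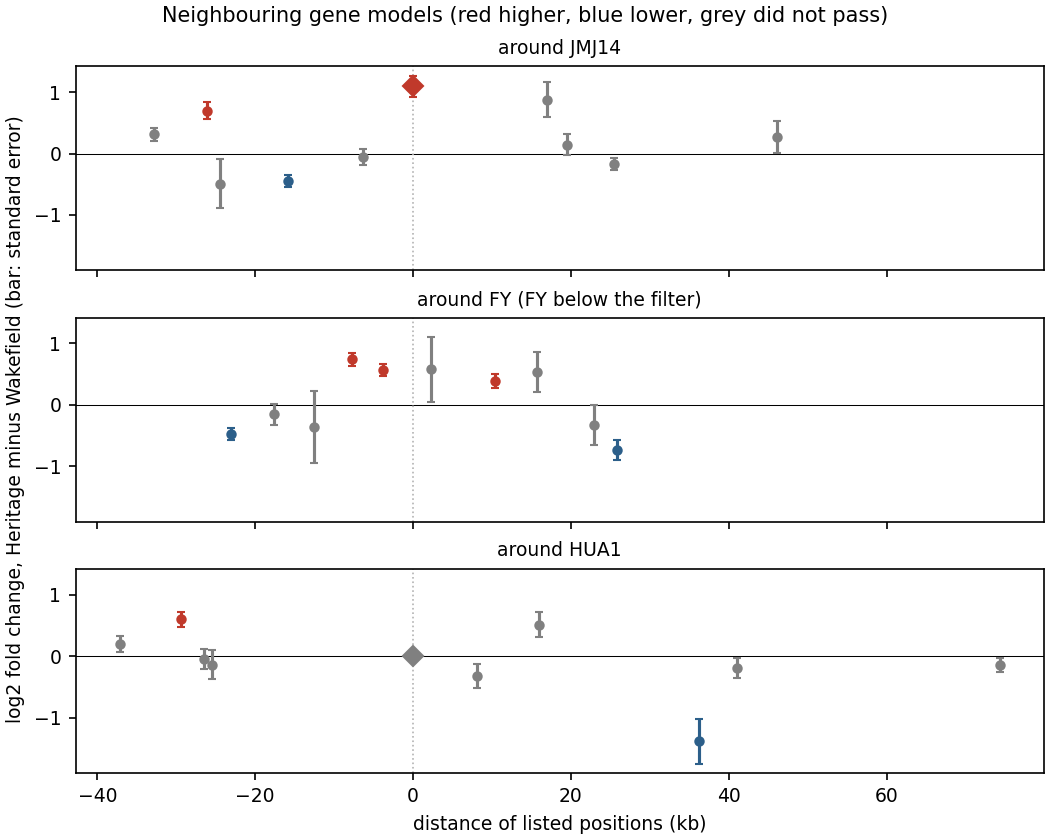
Log2 fold change, ‘Heritage’ minus ‘Wakefield’, with its standard error (vertical axis) against the distance of the listed position from JMJ14, FY or HUA1 (horizontal axis, kb), for the 5 nearest listed gene models on each side that were tested. JMJ14 and HUA1 are the diamonds at 0, FY was below the filter of this fit and has no point, and the neighbours of each gene lie on both sides of no change, from -0.49 to 0.87 around JMJ14.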

How the data were processed

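Each sample is a library of axillary buds of 1 cultivar, grouped by the cultivar in its label. The authors filtered reads with Trimmomatic and SortMeRNA, used STAR to align them to the R. occidentalis gene models and ran DESeq2. The counting program, its strand setting and the versions are not named in the sources used here. The authors deposited a signal per gene model, the read count scaled by the size factor of its library, which assumes that most genes do not differ. In every library 100% of values were whole multiples of a step, within 0.001 of a read, which gave back the reads. The deposited fold changes and p-values of the authors were not used. Because the values are normalized, limma 3.58.1 in R 4.3.3 was the main test (pseudocount 1, at least 10 in at least 3 libraries), and edgeR 4.0.16 and DESeq2 1.42.0 on the recovered reads (6678 and 7082 gene models called) were alternatives, with other pseudocounts and filters, a mean-variance trend and each library left out with the tested gene models kept. Exact intervals and permutation tests used Python 3.11.15 and scipy 1.17.1. The tests were tried on simulated counts.

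The members and lists were chosen with earlier results of these data known. Lists were matched through Arabidopsis orthologues in the 1998 gene models held of the study's list of the mapped intervals, so they do not cover the genome. A gene model was left out of the chromatin list for a reason other than its values and is not reported here. Named genes are the 4 genes, members of the lists, the marker genes, the neighbours, and the 3 named gene models closest to each of JMJ14, FCA and HUA1. Of the list members, values are given for those that passed or are direct partners. Values are also given for SUVH4, PIE1 and Ro04_G23448, which come from the 10 chromatin gene models that did not pass. Intervals on reads cover counting error only.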

Additional observations from a re-analysis of the deposited data

How the results depend on the processing

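JMJ14 kept its direction and its call, and FCA its direction and lack of a call, under all 8 other tests, filters and pseudocounts and with each library left out (log2 fold changes of 1.05 to 1.12 and 0.27 to 0.28, and of 0.95 to 1.25 and 0.25 to 0.36). HUA1 changed sign without passing, with log2 fold changes of 0.0015 in DESeq2 and of -0.045 to 0.052 with 1 library left out. FY ranged from -2.25 to -1.14 with 1 library left out, and the difference of FCA and FY was 3.25 with a pseudocount of 0.1 and 0.74 with 10. For JMJ14 and HUA1 against FY these were 4.06 and 2.96 with 0.1, and 1.51 and 0.46 with 10. The 5994 gene models called were 3083 to 5771 with 1 library left out and 1722 under a stricter rule in limma (adjusted p under 0.01, log2 fold change past 1 either way). Under that rule the lists for 3′ end processing, HUA1, chromatin and small RNA held 0, 0, 3 and 0 calls. With 1 library left out they held 0 to 1, 0 to 1, 4 to 6 and 0 to 2. The chromatin list held 3 to 10 calls over the other tests, filters, pseudocounts and rules. DESeq2 called 2 in the HUA1 list, and limma with a filter of at least 50 called 0 in the splicing list, since SKIP was not tested there. The cause of the other shifts was not tested. No paired analysis was possible because the labels give no pairing of the libraries. FY had too few reads for the filter of at least 10, and SKIP for that of 50.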

Other observations

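The profiles closest to each gene over the 6 libraries were looked up among the gene models of the mapped intervals with an Arabidopsis gene description, 1278 for JMJ14 and HUA1 and 1279 for FCA. Likeness was the root mean square difference of log2(normalized count + 1) centred on each gene's mean, and the libraries share cultivar and depth, so it is a description only. Gene models picked this way resemble the gene in change, call and high library because of the choice. Their fold changes and p-values are therefore no separate evidence. The closest to JMJ14 was a gene for MAP kinase phosphatase 1 (Ro04_G19475), at 0.09 log2 units against a median of 0.62. It had 1397 in ‘Heritage’ and 649 in ‘Wakefield’ (means, n = 3 each), which is 1.10 on the log2 scale (limma adjusted p = 0.00990). Its ‘Heritage’ library 62 was the high one, as for JMJ14. Histidine kinase 3 (Ro04_G07118), which names a cytokinin receptor in Arabidopsis, came next at 0.11, with 3161 and 1292 (log2 difference 1.27, limma adjusted p = 0.00534). A kelch repeat gene (Ro04_G36165) was the third, at 0.12. Closest to FCA were gene models listed for the ceramidase CES1 (Ro03_G10217, 0.04), for the translation initiation factor EIF4E1 (Ro03_G13380, 0.05) and for a BAH and Agenet domain protein (Ro04_G02663, 0.06), against a median of 0.31. They were picked for likeness to FCA, and like it were not past the threshold in limma, with log2 fold changes of 0.26, 0.31 and 0.28. Closest to HUA1 were a trigger factor gene (Ro04_G02581, 0.05), an armadillo repeat gene (Ro04_G19470, 0.05) and YLS8 (Ro03_G05172, 0.05), against a median of 0.27.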
